A study of Mus musculus with 20 samples.

Results

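The apolipoprotein L (Apol) genes of mouse liver were followed across 5 inbred strains. Members were all non-control probes whose gene name in the scanner files is Apol followed by a digit, which gave 16 of 55642 probes kept, for 11 genes: Apol6, Apol7a, Apol7b, Apol7c, Apol7d, Apol8, Apol9a, Apol9b, Apol10a, Apol10b and Apol11b. Of these 16 probes, 12 (for 8 genes) entered the tests because some strain had all 4 of its arrays well above background, and 4 (Apol6, Apol8 and both Apol7d probes) did not. The study hybridised liver RNA of 20 male mice, 4 per strain, to Agilent mouse arrays with a single dye, Cy3. The strains were 129P2/OlaHsd (called 129Ola here), C3HeB/FeJ (C3H), DBA/2J (DBA), C57BL/6 (B6) and the obese NZO/HiBomDife (NZO). Every mouse, of whichever strain, received the same high fat diet with 45% fat and was sampled at week 6, which the labels leave readable as age or as time on the diet. By the series title B6 and 129Ola are lean strains that resist diabetes, C3H and DBA are prone to it, and NZO is prone to it and obese. No mouse carried a transgene or an engineered allele by the labels, so each group is an inbred background compared with another, and a group holds the mice of 1 strain only. Mice are named by strain and animal number. Each animal number is taken to be a separate mouse.

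The family is named after human APOL1, a protein carried on high-density lipoprotein that lyses trypanosomes and whose variants are linked to kidney disease. Most other members lack a secretion signal, stay inside cells on membranes, and have been tied to ion channels, membrane remodelling and cell death. Mice have no APOL1 but carry a cluster of related genes on chromosome 15. Several members are induced by interferon, the cytokine signal of antiviral defence. These are bulk liver samples, in which fewer cells of a type and less RNA per cell cannot be told apart.

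Close copies matter for reading these probes. Apol9a and Apol9b are near-identical paralogs, and the brightest probe of each (A_55_P2043367 for Apol9a, A_66_P110633 for Apol9b) is the same 60-base stretch apart from 3 bases. Bases 1 to 30 of both, which hold all of the differences, are printed as on the array, 5′ to 3′, with the differing bases in capitals.
Apol9a: agccCacGcccatcctcaggcatgtcatTg
Apol9b: agccGacAcccatcctcaggcatgtcatGg
Counted from base 1 of the probe, with the Apol9a base first, the changes are C5G, G8A and T29G. A second Apol9a probe, A_55_P2107775, is annotated by the files to transcripts of both Apol9a and Apol9b, so the 3 probes cannot be assigned to 1 gene with certainty. How far RNA of one copy binds the other copy's probe was not tested. The Apol10b probe A_66_P120380 likewise carries transcripts of Apol10b, Apol11a and Apol11b, and the Apol7b probe those of Apol7b and Apol7e. The probes that separate the Apol10 genes are unlike each other. Over the best ungapped overlap of 52 bases the Apol10a probe A_52_P239086 and the Apol10b probe A_55_P2006494 differed at 30, and their bases 1 to 30 are shown because the largest differences between strains rest on them.
Apol10a: taagcactgaggtggcaaccatacgcctgc
Apol10b: cctgagataacaattccttcactttctggt
In the files' mm9 coordinates 14 of the 16 probes lie on chromosome 15. The Apol6 probe stands apart at 76881350 to 76881409. From Apol7a (77218745 to 77218804) the cluster runs through Apol9a (77234221 to 77234280), Apol7b (77252643 to 77252702), Apol10a (77320890 to 77320949), Apol7c (77356343 to 77356402), Apol10b (77414593 to 77414652), Apol11b (77465030 to 77465089) and Apol9b (77566751 to 77566810) to Apol8 (77578354 to 77578413). The Apol7d probes lie on chromosome 1. Sequences of the strains were not used here, so an allele under a probe that lowers its signal in 1 strain was not tested.

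Levels are given as log2 of the background-subtracted signal minus the array's 75th percentile, so that 0 is the signal of the probe at that percentile, and only levels of the same probe are compared. A difference is called where limma's adjusted p (Benjamini-Hochberg over all 28431 probes tested) is below 0.05. Between 40% and 59.1% of probes were well above background per array, with the lowest shares in 129Ola. All 10 hepatocyte markers, albumin and transthyretin among them, were above background on all arrays. B6, NZO and DBA were read with a software version other than that used for C3H and 129Ola. Therefore 4 comparisons lie within a version (NZO with B6, DBA with B6, NZO with DBA, and C3H with 129Ola), and in the 6 others strain and version cannot be told apart. NZO, DBA and B6 share scan days 1 and 2, and values within those days stand beside the pooled ones. DBA 8 and DBA 15 were scanned on day 3, on a slide with no other strain. For these mice strain, scan and slide cannot be told apart, and the pooled DBA values include them. Day 1 held 3 NZO, 2 B6 and 1 DBA mice, and day 2 held 1 NZO, 2 B6 and 1 DBA mice. The within-day values therefore rest on as few as 1 mouse per strain, were not tested and give no spread. C3H and 129Ola were each scanned on a day and on slides of their own, so strain, scan and slide cannot be told apart between them.

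In NZO against B6, 3 of the 12 Apol probes differed, 1 higher in NZO (Apol10a) and 2 lower (an Apol10b probe and an Apol7a probe), where 17.7% of all tested probes were called, 9.05% higher and 8.66% lower. DBA differed from B6 in 1 probe, Apol10a, lower in DBA, against 14.8% of all probes (6.89% higher, 7.95% lower). NZO differed from DBA in 4 probes, 2 higher and 2 lower, against 17% (9.15% higher, 7.83% lower). The higher ones include the Apol10b probe A_66_P120380, which entered the tests through NZO alone, so its call is a description. C3H differed from 129Ola in 7 probes, 5 higher and 2 lower, against 35.5% (14.4% higher, 21.1% lower). The 5 higher include the 3 Apol9 probes, which cannot be assigned to 1 gene with certainty and correlated at 0.991 to 0.996 over the arrays. These counts and the medians below are therefore of probes and not of separate genes. The median difference of the 12 probes was -0.45, -0.09, -0.34 and 0.25 in these comparisons, where that of all probes was 0.03, 0.0049, 0.03 and -0.08. NZO against B6, DBA against B6 and NZO against DBA share mice, so their calls are not independent of each other. Leaving out 129Ola 4 raised the NZO against B6 count to 5 (both Apol9a probes were added), as did leaving out 129Ola 9.

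**Figure D1:**
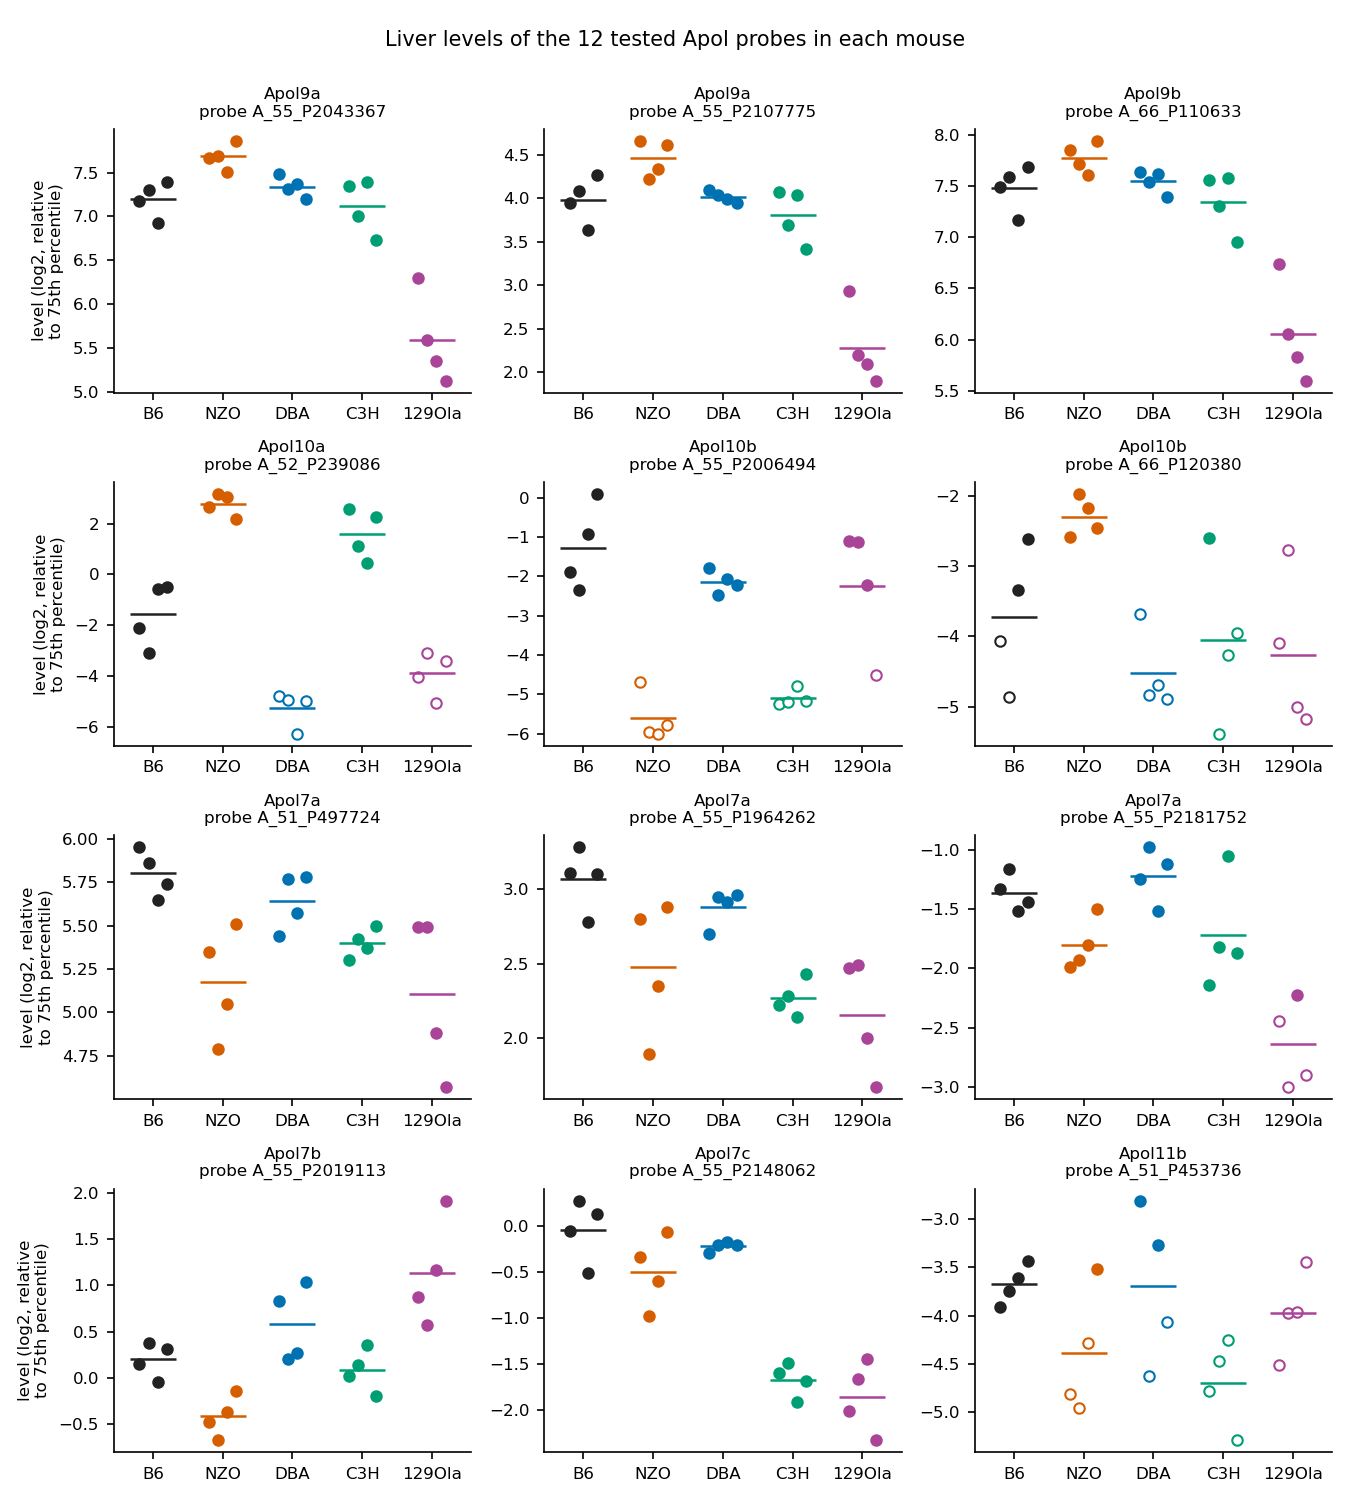
Levels of the 12 tested Apol probes in each of the 20 mice (y axis, log2 relative to the array's 75th percentile) by strain (x axis). Each point is 1 mouse, filled where the probe was well above background and open where it was not, and lines are strain means. Apol10a is open in all DBA and 129Ola mice, the Apol10b probe A_55_P2006494 is open in all NZO and C3H mice, and the 3 Apol9 panels show 129Ola below the other 4 strains.

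Apol10a and Apol10b lie in the same cluster. NZO and C3H were high in Apol10a and low in Apol10b, DBA and 129Ola the reverse, and B6 had both. Apol10a was above background in every NZO, C3H and B6 mouse and in no DBA or 129Ola mouse. Its level was 2.64, 3.16, 3.04 and 2.20 in NZO 3, 7, 9 and 11, and 2.57, 1.13, 0.47 and 2.27 in C3H 1, 2, 3 and 5. B6 was intermediate, with -2.10, -3.10, -0.56 and -0.50 in mice 9, 10, 11 and 15. The background-level signals were -4.77, -4.93, -6.27 and -4.96 in DBA 5, 8, 9 and 15 and -4.02, -3.07, -5.04 and -3.39 in 129Ola 4, 5, 7 and 9. The NZO mice lay above all B6 mice, and all B6 mice above all DBA mice.

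NZO exceeded B6 by a log2 difference of 4.32 ± 0.59 (SE, 4 mice in each strain, limma adjusted p = 3.74e-05), a 20-fold ratio of means. Within scan days 1 and 2 the difference was 4.42 and 4.49. Against DBA, where no array measured the gene, NZO was at least 99.6-fold higher (limma adjusted p = 1.89e-08; mean levels 2.76 and -5.23), and B6 at least 4.98-fold higher (limma adjusted p = 0.000204). Here "at least" sets the brighter strain's mean against the higher, on each array of the other strain, of the probe's own signal and the lowest signal still above background. Within days 1 and 2, NZO minus DBA was 8.90 and 7.93, and DBA minus B6 was -4.48 and -3.44, which are differences from signals below background and give the direction only. With the normexp background correction the fitted differences were smaller, 4.11 for NZO minus DBA, -0.97 for DBA minus B6, 3.14 for NZO minus B6 and 2.30 for C3H minus 129Ola, all still called, so the bounds hold for the scanner's own background subtraction. C3H was at least 20-fold higher than 129Ola (limma adjusted p = 2.11e-06; mean levels 1.61 and -3.88). Across versions, C3H lay 3.17 ± 0.59 above B6 (limma adjusted p = 0.00055). The order of the strains was thus NZO, C3H, B6, then 129Ola and DBA with only a bound. The first 2 did not pass the test against each other (C3H minus NZO -1.15, 95% interval -2.40 to 0.10, limma adjusted p = 0.141). B6 was at least 2.22-fold above 129Ola (limma adjusted p = 0.00384), although B6 10 at -3.10 fell within the 129Ola range.

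For the Apol10b probe A_55_P2006494 NZO and C3H were the low strains, and B6 was again above background. It was above background in every B6 and DBA mouse, in 3 of 4 129Ola mice and in no NZO or C3H mouse. The levels were -1.90, -2.34, -0.92 and 0.09 in B6 9, 10, 11 and 15 and -1.78, -2.47, -2.08 and -2.22 in DBA 5, 8, 9 and 15. In 129Ola they were -1.09, -1.13 and -2.23 in mice 4, 5 and 7 and -4.51 in mouse 9, the animal that was not above background. The signals that only bound the level were -4.69, -5.97, -6.01 and -5.79 in NZO 3, 7, 9 and 11, and -5.25, -5.19, -4.79 and -5.18 in C3H 1, 2, 3 and 5. Every mouse above background lay above the signals of all NZO and C3H mice, and 129Ola 9 has no order against them.

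B6 was at least 6.05-fold above NZO (limma adjusted p = 4.95e-05; mean levels -1.27 and -5.62), with within-day differences of NZO minus B6 of -4.37 and -4.56. DBA was at least 3.31-fold above NZO (limma adjusted p = 0.000445), with -3.42 and -4.19 within days 1 and 2. In the authors' own value table NZO minus B6 was -0.79 and NZO minus DBA -0.32, and neither was called. NZO minus DBA was not called with the normexp background correction either. For 129Ola against C3H the bound was 1.72-fold (limma adjusted p = 0.00186), and with slide as a random block the adjusted p from limma was 0.063. B6, DBA and 129Ola did not pass the test against each other: DBA minus B6 was -0.87 (95% interval -2.16 to 0.42), 129Ola minus B6 -0.97 (-2.26 to 0.32) and 129Ola minus DBA -0.10 (-1.39 to 1.19).

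**Figure D2:**
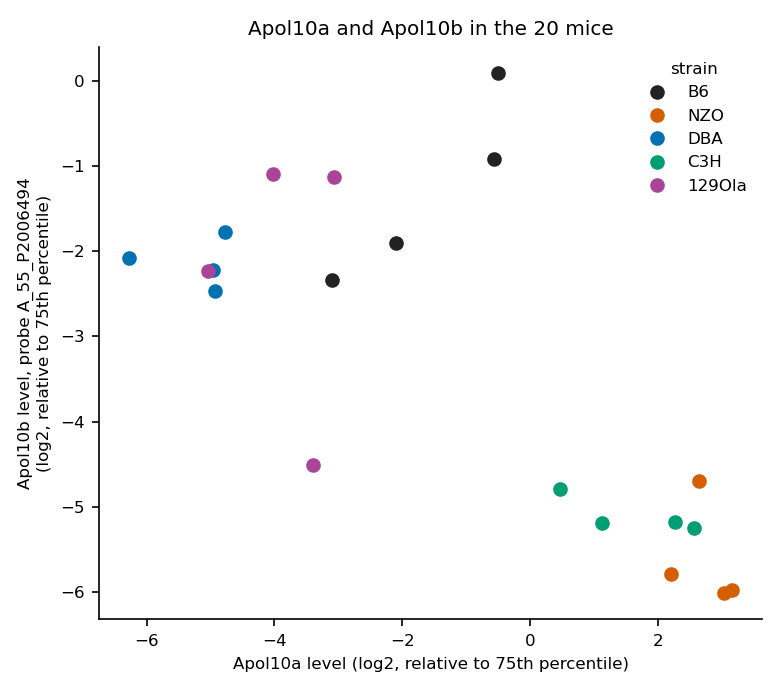
Apol10a level (x axis) against the level of the Apol10b probe A_55_P2006494 (y axis), both in log2 relative to the array's 75th percentile, 1 point per mouse coloured by strain. NZO and C3H mice sit at the lower right, DBA and 129Ola mice at the left, and B6 mice lie mostly between them along x (B6 10 within the 129Ola range) and overlap DBA along y.

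Over the 20 arrays the correlation of both probes was -0.719, while that of their deviations from the strain means was 0.211. The points share strain and scan, values below background carry no order, and B6 alone had both probes above background in every mouse, so the within-strain value says little. The second Apol10b probe, A_66_P120380, which also matches Apol11a and Apol11b, had correlations of 0.659 with Apol10a and -0.237 with the other Apol10b probe over the 20 arrays, and of 0.688 and 0.564 within strains. It was above background in all NZO mice, at -2.58, -1.97, -2.17 and -2.46 in mice 3, 7, 9 and 11, in 2 B6 mice, in 1 C3H mouse and in no DBA or 129Ola mouse. The remaining 16 values ran from -5.39 to -2.60. The probe entered the tests through NZO alone, so its call in NZO against DBA (at least 2.91-fold higher in NZO, limma adjusted p = 0.0122) is a description, and NZO minus B6 was 1.43 ± 0.58 (limma adjusted p = 0.107). The lower level of Apol10b in NZO rests on A_55_P2006494.

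Apol9a and Apol9b encode cytosolic proteins that interferon induces strongly, and that have been reported to bind phosphatidylethanolamine and to restrain virus replication. Both were bright in all 5 strains and lowest in 129Ola. The Apol9a probe A_55_P2043367 read 6.30, 5.59, 5.35 and 5.13 in 129Ola 4, 5, 7 and 9, and 7.35, 7.01, 7.39 and 6.73 in C3H 1, 2, 3 and 5. The other strains stood at 7.18, 7.30, 6.93 and 7.39 in B6 9, 10, 11 and 15, at 7.48, 7.31, 7.37 and 7.20 in DBA 5, 8, 9 and 15, and at 7.67, 7.69, 7.51 and 7.86 in NZO 3, 7, 9 and 11. No 129Ola mouse reached the lowest mouse of any other strain, and all NZO mice lay above all B6, DBA and C3H mice.

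C3H exceeded 129Ola by 1.53 ± 0.20 (SE, n = 4 per strain, limma adjusted p = 2.12e-05), which is 2.88-fold. The shared probe A_55_P2107775 gave 1.52 ± 0.20 (limma adjusted p = 2.12e-05), with 3.41 to 4.07 in C3H and 1.90 to 2.93 in 129Ola. The Apol9b probe gave 1.29 ± 0.20 (limma adjusted p = 9.75e-05), with 7.56, 7.30, 7.58 and 6.95 in C3H 1, 2, 3 and 5 and 6.74, 6.06, 5.83 and 5.60 in 129Ola 4, 5, 7 and 9. These 3 calls held under every alternative setting in which the probe was tested, slide as a random block among them. Since C3H and 129Ola lay on slides of their own, that block cannot separate slide from strain. Across versions, 129Ola was lower than B6, NZO and DBA by 1.43 to 2.18 on all 3 probes. NZO minus B6 was 0.48, 0.48 and 0.29 on the 3 probes (limma adjusted p = 0.113, 0.116 and 0.354) and NZO minus DBA 0.35, 0.44 and 0.23 (limma adjusted p = 0.285, 0.155 and 0.499), so neither passed the test, although with scan day as a block the first of these probes was called for NZO against B6. The neighbours in the order NZO, DBA, B6 and C3H did not pass the test against each other on A_55_P2043367. The 3 probes moved as one: their correlations over the 20 arrays lay between 0.991 and 0.996, and those of the deviations within strains between 0.934 and 0.989.

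The Apol7 genes (Apol7a, Apol7b and Apol7c) did not differ in 1 direction. Apol7a, a bright liver member, has 3 probes. On A_51_P497724 the levels were 5.95, 5.86, 5.65 and 5.74 in B6 9, 10, 11 and 15 and 5.35, 4.79, 5.05 and 5.51 in NZO 3, 7, 9 and 11, with all NZO mice below all B6 mice. NZO was 0.63 lower by the fit (difference -0.63 ± 0.19, limma adjusted p = 0.0258), and within days 1 and 2 the difference was -0.50 and -1.01. It no longer passed without B6 9, B6 10, NZO 7 or NZO 9, with no filter on dim probes, or with animal number as a block. The second probe, A_55_P1964262, gave -0.59 ± 0.20 (limma adjusted p = 0.0546) and the third, A_55_P2181752, -0.44 ± 0.21 (limma adjusted p = 0.178). The second was called lower in NZO with normexp, quantile normalization, another percentile set, the authors' table, the filter for probes above background on all arrays, and scan day as a block. It was not called with slide or animal number as a block, with the arrays of the 2 strains alone, or with no filter on dim probes. DBA ranged from 5.44 to 5.78 on the first probe, C3H from 5.30 to 5.50 and 129Ola from 4.57 to 5.49.

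On A_55_P2181752 alone C3H exceeded 129Ola, by 0.92 ± 0.21 (limma adjusted p = 0.00314). C3H 1, 2, 3 and 5 read -2.14, -1.82, -1.05 and -1.87, and 129Ola 4, 5, 7 and 9 read -2.44, -3.0, -2.22 and -2.90, with only mouse 7 above background. The ranges did not overlap, but the call was lost with slide as a random block, with animal number as a block and with the normexp background correction. The brighter Apol7a probes gave 0.29 and 0.11 (limma adjusted p = 0.237 and 0.707), of which the first was called with quantile normalization. The sizes differed between the probes of Apol7a, and that difference was not tested.

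Apol7b was the tested member whose mean level was highest in 129Ola. Against DBA this did not pass the test (129Ola minus DBA 0.55, limma adjusted p = 0.0721), and the ranges overlapped. Against B6, NZO and DBA it crosses software versions. The Apol7b probe, which also matches Apol7e, read 0.88, 0.57, 1.17 and 1.92 in 129Ola 4, 5, 7 and 9 and 0.02, 0.14, 0.36 and -0.20 in C3H 1, 2, 3 and 5. NZO was lowest, at -0.48, -0.68, -0.37 and -0.14 in mice 3, 7, 9 and 11, below all DBA mice (0.83, 0.20, 0.27 and 1.04 in mice 5, 8, 9 and 15) and all B6 mice (0.15, 0.38, -0.05 and 0.31 in mice 9, 10, 11 and 15). C3H lay 1.06 below 129Ola (difference -1.06 ± 0.24, limma adjusted p = 0.00312), a call lost with slide as a random block and with animal number as a block. NZO lay below DBA (difference -1.0 ± 0.24, limma adjusted p = 0.00719), with -0.60 and -1.51 within days 1 and 2. That call was lost with animal number as a block (limma adjusted p = 0.153). NZO minus B6 was -0.61 ± 0.24 (limma adjusted p = 0.0958).

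Apol7c, described in dendritic cells, did not differ past the threshold in any comparison within a version under the main settings. It was called for NZO against B6 with scan day as a block. Its range was -0.51 to 0.28 in B6, -0.98 to -0.06 in NZO, -0.29 to -0.17 in DBA, -1.91 to -1.49 in C3H and -2.33 to -1.44 in 129Ola. All C3H and 129Ola mice lay below all mice of the other strains, with differences of -1.18 to -1.83 in the 6 pairs across versions, where strain and version cannot be told apart. Apol11b hardly rose above background. It was above it in all B6 mice, in 1 NZO mouse, in 2 DBA mice and in no C3H or 129Ola mouse. Its levels lay between -5.29 and -2.81, and no comparison within a version passed the test under the main settings. C3H against 129Ola was called with quantile normalization and in the authors' value table, and NZO against DBA with scan day as a block.

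The 4 probes that were not tested stayed at background. Apol8 was above it on 0 of 20 arrays, Apol6, whose human counterpart promotes cell death, on 1 array (B6 9, at -3.66), and 1 Apol7d probe on 0. The other Apol7d probe was above background in NZO 3 (-1.69) and NZO 9 (-3.55) only, and read -5.81 and -5.63 in NZO 7 and NZO 11.

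**Figure D3:**
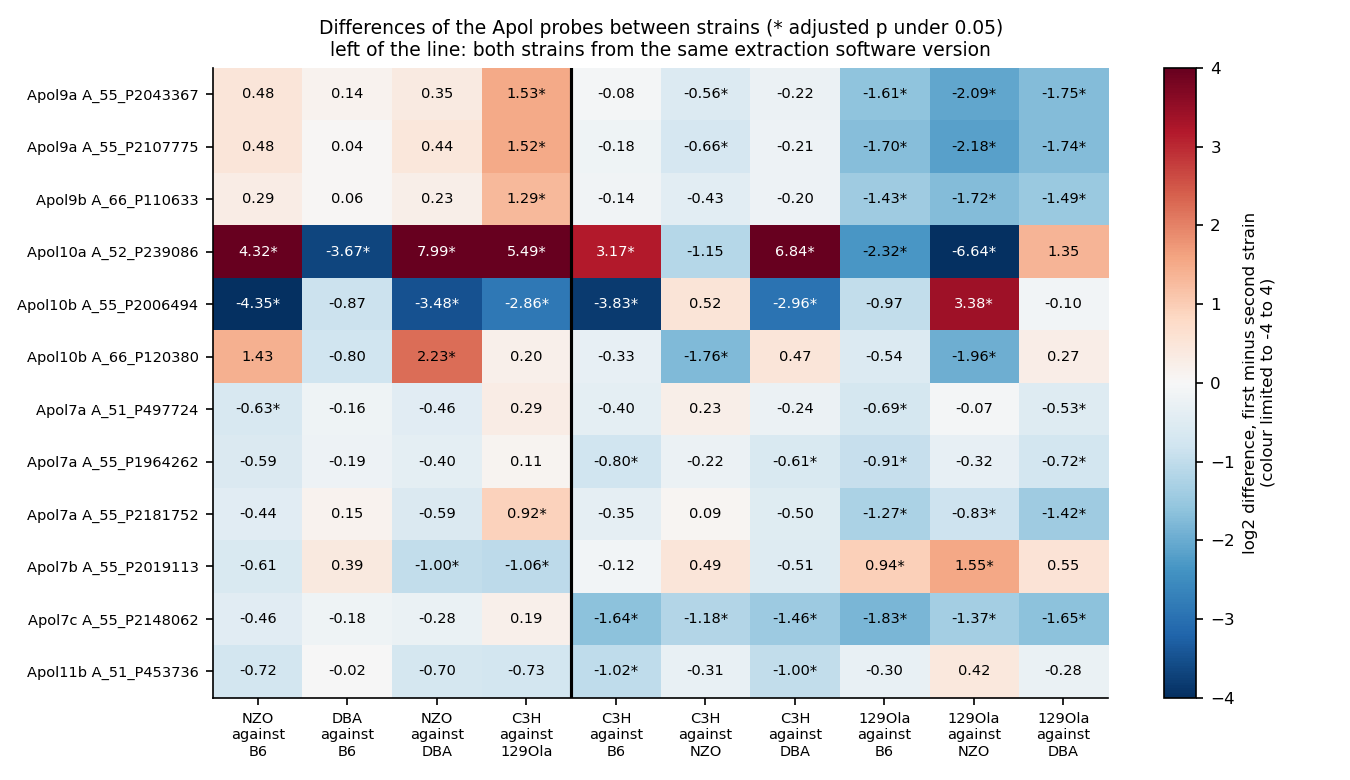
Log2 differences of the 12 tested Apol probes (rows) in the 10 pairs of strains (columns), first minus second strain, with the colour limited to -4 to 4 and a star where limma's adjusted p is under 0.05. The 4 columns left of the line compare strains read with the same software version. The Apol10a row and the Apol10b row A_55_P2006494 carry the largest values, with opposite colours in NZO against B6, NZO against DBA and C3H against 129Ola but not in DBA against B6, and the 3 Apol9 rows share the same colours in every column.

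Across versions strain and software cannot be told apart, and the counts stand beside those of all probes. C3H differed from B6 in 5 of the 12 probes, from NZO in 4 and from DBA in 5, where 35.2%, 35.5% and 33.7% of all probes were called. 129Ola differed from B6 in 9, from NZO in 9 and from DBA in 7, where 48.9%, 50.8% and 47.7% were called. Apol11b, called lower in C3H than in B6 and in DBA, entered the tests through B6 alone, so its B6 call is a description. Both NZO counts include the Apol10b probe A_66_P120380, which entered through NZO alone, and are descriptions for that probe. Each 129Ola count includes the 3 Apol9 probes, which moved as one. Called probes were lower in 129Ola than in the other strain, except Apol7b (against B6 and NZO) and the Apol10b probe A_55_P2006494 (against NZO), which were higher.

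Interferon-response genes give the setting for Apol9a and Apol9b. Of all tested probes, 35.5% were called in C3H against 129Ola and 17.7% in NZO against B6. The share was 17% in NZO against DBA and 14.8% in DBA against B6. Whether the gene lists depart from these shares was not tested. Of 33 tested interferon-stimulated genes, a list of type I interferon targets such as Mx1 and Ifit1, 16 stood higher in C3H than in 129Ola and 1 lower, and 16 did not pass the test (median 0.54, all probes -0.08). Oasl1, a synthetase-like protein of the antiviral response, was 2.44 ± 0.17 higher (limma adjusted p = 9.17e-09), and Xaf1, an interferon-induced death-promoting protein, 1.93 ± 0.20 (limma adjusted p = 1e-06). The 3 Apol9 probes differed in the same direction as these 16 genes. Across versions, 25 of the list were lower and 0 higher in C3H than in B6 (median -1.01). The Apol9 probes gave -0.08, -0.18 and -0.14 there, none called. Against DBA, 22 were lower and 1 higher in C3H (median -0.91), with Apol9 at -0.22, -0.21 and -0.20, none called. In 129Ola against B6, 29 were lower and 1 higher (median -1.6), and all 3 Apol9 probes were called lower. Strain and version cannot be told apart in these pairs. In NZO against B6, 14 of the list rose, 2 fell and 17 did not pass the test (median 0.36), and in NZO against DBA 19, 1 and 13 (median 0.63), where the Apol9 probes had smaller differences that were not called. Ifit1, an antiviral RNA-binding protein, was 1.98 ± 0.20 higher in NZO than in B6 (limma adjusted p = 1.03e-06), and Eif2ak2, the antiviral kinase PKR, 1.30 ± 0.13 (limma adjusted p = 1.22e-06), while Mx2, an antiviral GTPase, was 6.02 ± 0.28 lower by the fit (difference -6.02), with 1 of 4 NZO arrays above background. In DBA against B6, 1 was higher and 5 lower (median -0.20), among them Xaf1 (-0.73 ± 0.20, limma adjusted p = 0.015). Leaving out each array in turn kept the higher counts at 11 to 17 for C3H against 129Ola, 11 to 15 for NZO against B6 and 15 to 19 for NZO against DBA. The lower count for DBA against B6 dropped to 3 without B6 15 or DBA 9.

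Of 25 interferon gamma GTPases and antigen-processing genes, 11 were higher and 0 lower in C3H against 129Ola, with 3 of the list above background on no array of C3H and 3 on no array of 129Ola. Gbp9, a guanylate-binding GTPase, was 1.46 ± 0.15 higher (limma adjusted p = 1.76e-06) and Psmb9, an immunoproteasome subunit, 1.18 ± 0.18 (limma adjusted p = 8.72e-05). The count was 7 without C3H 1 or C3H 3. In NZO against B6 it was 7 higher and 2 lower, with 4 higher without B6 9, B6 11 or NZO 3. For DBA against B6 the counts were 2 and 2, for NZO against DBA 7 and 1. The ligands, receptors and signalling genes formed the third list. Of 16, 2 were higher and 3 lower in C3H against 129Ola, 0 and 1 in NZO against B6 (Irf8, a transcription factor of myeloid cells, -0.74 ± 0.13, limma adjusted p = 0.000567), 1 and 3 in DBA against B6, and 4 and 1 in NZO against DBA (1 higher without NZO 3, 9 or 11 or DBA 5, 9 or 15). Of 15 apolipoproteins of plasma lipoproteins, unrelated in sequence to the Apol family, 5 were higher and 4 lower in C3H against 129Ola, with 2 higher without 129Ola 5. In NZO against B6 5 were higher and 0 lower, with as few as 1 higher without B6 9 or NZO 3. For DBA against B6 the counts were 1 and 1, for NZO against DBA 4 and 0.

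**Figure D4:**
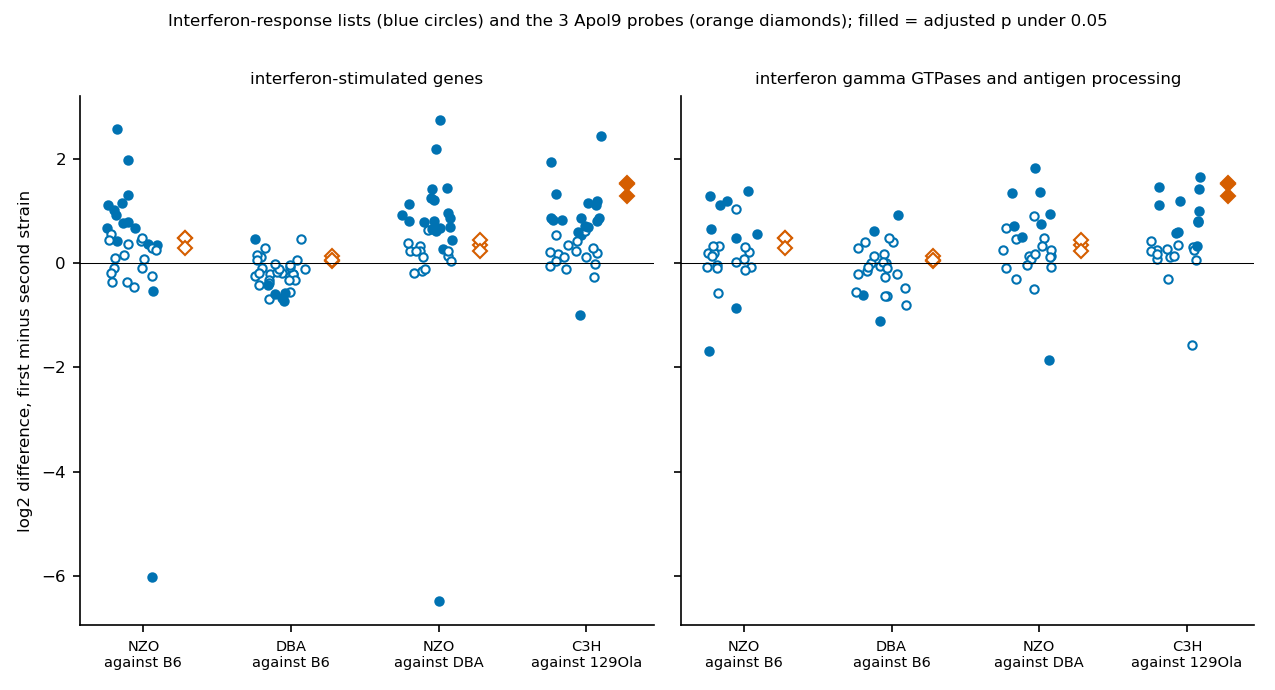
Log2 differences (y axis, first minus second strain) in the 4 comparisons within a version (x axis) for each tested gene of both interferon lists (circles) and the 3 Apol9 probes (diamonds), filled where limma's adjusted p is under 0.05. The Apol9 diamonds are filled in C3H against 129Ola only, where most filled circles lie above 0, and the circle near -6 in both NZO comparisons is Mx2.

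Markers of other liver cell types also differed between strains. Of all tested probes, 17.7% were called in NZO against B6 and 14.8% in DBA against B6. The share was 17% in NZO against DBA and 35.5% in C3H against 129Ola (14.4% higher, 21.1% lower). Whether the marker counts depart from these shares was not tested. Of 13 Kupffer cell and macrophage markers, 1 was higher and 9 lower in C3H than in 129Ola. Their mean level was 1.90 to 2.76 in C3H and 2.72 to 3.19 in 129Ola. In NZO 0 were higher and 7 lower than in B6, and in DBA 0 and 7, with marker means of 3.30 to 3.81 in B6, 2.89 to 3.12 in NZO and 2.49 to 2.65 in DBA. Of 10 dendritic cell markers, 0 were higher and 5 lower in NZO against B6, 0 and 4 for DBA against B6, 1 and 2 for NZO against DBA, and 1 and 3 for C3H against 129Ola, with marker means of 0.46 to 1.11 in B6, -0.69 to 0.05 in NZO, -0.64 to -0.13 in DBA, -1.09 to -0.48 in C3H and 0.03 to 0.46 in 129Ola. Of 10 sinusoidal endothelial markers 2 were higher and 6 lower in C3H against 129Ola, and of 7 erythroid markers 5 were higher and 0 lower. Of 6 listed adipocyte markers only 3 were tested (Adrb3, Cfd and Fabp4), and all 3 were higher in C3H. Adipoq, Plin1 and Lep were not tested, since no strain had all 4 arrays above background. Of 7 neutrophil markers 3 were higher and 0 lower in NZO against DBA (median 1.46) and 2 and 0 in NZO against B6. Every Kupffer marker was above background on all arrays. The hepatocyte markers were 0 higher and 0 lower of 10 in the 3 comparisons among B6, NZO and DBA, and 3 and 1 in C3H against 129Ola. The part of cell composition in the Apol differences was not tested.

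Promoters of the member genes were read from RefSeq (GRCm38.p6), 250 bases before the start to 50 after it. Entries were found for 9 of the 11 member genes (not for Apol6 or Apol7d). The core of the interferon-stimulated response element, searched on both strands as GAAA, any pair of bases and GAAA again, occurred in the windows of 6 of these 9: Apol9a, Apol9b, Apol10a, Apol10b, Apol7c and Apol11b. The core occurred in 3.44% of all 32851 promoters of that length. In the interferon-stimulated list, 23 genes had a promoter entry, and 13 of these genes (56.5%) had the core. The former share counts promoters and the latter counts genes, so the units differ. Apol9a and Apol9b each held 2 overlapping matches, at positions -59 and -53 from the start in Apol9a and -37 and -31 in Apol9b. Each gene has a second start in the table, with matches at -105 and -99 in Apol9a and -86 and -80 in Apol9b. The windows of the first starts were 86.3% identical over their alignment (63.0% to 88.1% over the pairs of Apol9a and Apol9b windows), and those of Apol10a and Apol10b 45.0%. The gamma-activated site, TTCNNNGAA, which overlaps none of these matches, occurred in Apol10a and Apol11b and in 8.3% of all promoters. The 250 bases before each start are printed because the Apol9 probes had like patterns and the Apol10a and Apol10b probes did not. Capitals mark these matches, which all lie on the reverse strand. The Apol10b match starts 4 bases before the start and runs past the printed end.
Apol9a (chr15:77411081-77411330, minus strand): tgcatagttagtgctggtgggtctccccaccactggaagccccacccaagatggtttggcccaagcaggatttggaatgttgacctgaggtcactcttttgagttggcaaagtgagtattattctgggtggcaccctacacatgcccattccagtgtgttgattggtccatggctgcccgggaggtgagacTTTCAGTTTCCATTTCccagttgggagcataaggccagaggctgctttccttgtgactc
Apol9b (chr15:77728822-77729071, plus strand): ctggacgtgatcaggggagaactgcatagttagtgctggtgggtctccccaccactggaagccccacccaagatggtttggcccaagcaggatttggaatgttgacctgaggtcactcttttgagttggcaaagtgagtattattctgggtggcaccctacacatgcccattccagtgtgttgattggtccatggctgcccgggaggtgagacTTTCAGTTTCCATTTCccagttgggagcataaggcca
Apol10a (chr15:77476797-77477046, plus strand): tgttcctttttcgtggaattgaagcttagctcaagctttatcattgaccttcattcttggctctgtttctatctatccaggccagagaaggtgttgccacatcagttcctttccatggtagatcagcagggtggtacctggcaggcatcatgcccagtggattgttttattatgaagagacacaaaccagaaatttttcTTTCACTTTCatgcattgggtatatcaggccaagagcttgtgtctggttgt
Apol10b (chr15:77596126-77596375, minus strand): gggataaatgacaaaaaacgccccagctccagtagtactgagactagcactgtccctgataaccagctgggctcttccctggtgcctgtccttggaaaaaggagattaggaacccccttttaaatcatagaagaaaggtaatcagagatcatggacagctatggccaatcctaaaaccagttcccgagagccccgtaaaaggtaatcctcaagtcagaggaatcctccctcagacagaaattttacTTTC
A match describes these letters in the reference genome, and whether a factor binds there, or whether the strains differ there, was not measured.

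Among all other named probes, those with a level pattern most like a member over the 20 arrays were taken for the members with the widest strain range. For Apol9a (A_55_P2043367) they were Psmb9 (Pearson r 0.944), a pair of probes for Dct, an enzyme of pigment synthesis (0.941 and 0.938), Psmb8, another immunoproteasome subunit (0.941), and Oasl1 (0.931). Psmb9, for one, averaged 3.21 ± 0.36 (SD, n = 4) in 129Ola and 4.23 ± 0.30 in B6, 4.78 ± 0.17 in NZO, 4.70 ± 0.11 in DBA and 4.38 ± 0.26 in C3H. For Apol10a they were H2-K2 (0.939), a class I histocompatibility gene, Pex11g (0.927), a peroxisome division factor, H2-M2 (0.904), Gspt2 (0.889) and Crybg3 (0.887). H2-K2 averaged 9.13 ± 0.10 in NZO, 8.81 ± 0.09 in C3H, 8.59 ± 0.16 in B6, 8.31 ± 0.15 in 129Ola and 8.06 ± 0.13 in DBA. NZO, C3H and B6 stood in this order in Apol10a too. For the Apol10b probe they were Cyp2c54 (0.903), a cytochrome P450, Ppfia4, Pilra, Atox1 and Cflar (0.869 to 0.889). For Apol7c they were Zfp995, Gnb1, Kmo, Zfp442 and Gm15645 (0.936 to 0.946). The points of each correlation share strain, scan and software version, so they describe 5 strain means more than 20 mice.

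Genes beside the cluster were compared because the Apol members are neighbours. Within 500 kb of the outermost chromosome 15 probes, 29 other genes were tested. In NZO against B6 4 were higher and 2 lower, for DBA against B6 the counts were 0 and 2, for NZO against DBA 5 and 2, and in C3H against 129Ola 5 and 11. Of all tested probes 17.7%, 14.8%, 17% and 35.5% were called in these comparisons. Whether the neighbours depart from those shares was not tested. Lrrc24, a leucine-rich repeat membrane protein, showed the strain split of Apol10a in part. It was 3.18 ± 0.32 higher in NZO than in B6 (limma adjusted p = 1.18e-06), 2.74 ± 0.32 higher in NZO than in DBA and 3.48 ± 0.32 higher in C3H than in 129Ola, with means of 0.17 ± 0.38 (SD, n = 4) in C3H, -0.74 ± 0.23 in NZO, -3.31 ± 0.71 in 129Ola (0 of 4 arrays above background, so the C3H difference is a fitted value and not a bound), -3.48 ± 0.27 in DBA and -3.93 ± 0.63 in B6. Recql4, a DNA helicase next to it, ran the other way, with -0.12 ± 0.20 in B6, -0.15 ± 0.31 in 129Ola and -0.38 ± 0.11 in DBA but -1.75 ± 0.40 in C3H and -2.32 ± 0.71 in NZO, and a second Recql4 probe gave the same calls in the same direction. Cacng2, an auxiliary subunit of glutamate receptors, was high in C3H alone (3.73 ± 0.52, with means of -4.94 to -3.57 elsewhere, where 1 B6 array was above background).

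**Figure D5:**
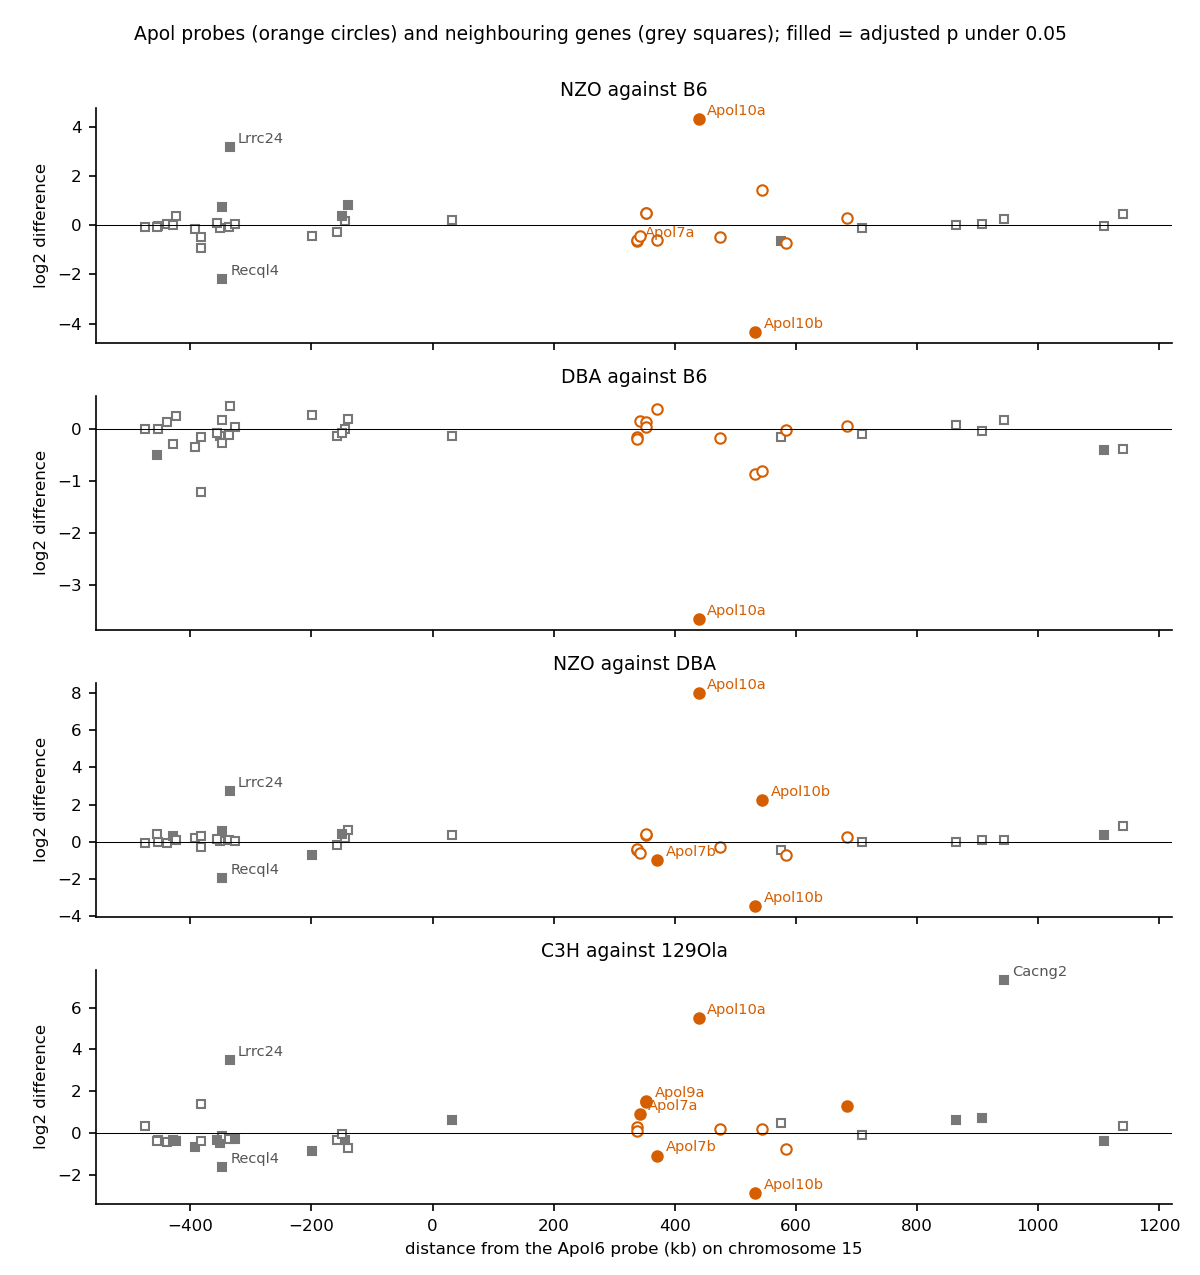
Log2 differences (y axis) of the Apol probes (circles) and of neighbouring tested genes (squares, 1 probe per gene) by distance from the Apol6 probe in kb (x axis) on chromosome 15, 1 panel per comparison within a version, filled where limma's adjusted p is under 0.05. Apol10a is the point farthest from 0 in 2 panels and in the third shares that place with Apol10b, Lrrc24 and Recql4 lie on opposite sides of 0 wherever they are filled, and Cacng2 stands alone in C3H against 129Ola.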

How the data were processed

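Liver RNA was read on 20 single-dye Agilent arrays. The authors deposited scanner files whose background-subtracted intensity values came from Feature Extraction 11.0.1.1 (B6, NZO, DBA) or 11.5.1.1 (C3H, 129Ola), per the file headers, while the submitters' processing notes name version 9.1. A table of intensity values normalized by the authors, with their offset and background correction unknown, was an alternative (37892 probes, median 19.9 on each array). The flags of each spot (other values, such as well above background) were used as deposited, per the file headers. Control and outlier spots were left out, spots of a probe were averaged, and log2 signal minus the array's 75th percentile was computed. Probes were tested where some strain had all 4 arrays well above background, with limma 3.58.1 (R 4.3.3): 1 mean per strain over all 20 arrays, 15 residual degrees of freedom, Benjamini-Hochberg adjustment over 28431 probes. The fit was tested on simulated data.

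For a list, the brightest probe stood for each gene. Named list genes were among the 4 with the largest called difference in a comparison, neighbours among the 3 largest called, and most-alike probes the 5 with the highest Pearson r. Alternatives were normexp (offset 50), quantile normalization, another percentile set, the authors' table, 2 filters, the arrays of 2 strains alone, slide, scan day and animal number as blocks, and each array left out. RefSeq accessions named 27641 of 29107 probes that carry one. The members and lists were chosen with earlier results of these data known. The number of arrays limits the precision.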

Additional observations from a re-analysis of the deposited data

Results flagged for a closer look

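In 5 of 80 groups of 4 mice (16 probes in 5 strains), the lowest or highest mouse stood far from the other 3 of its strain by Dixon's test, which chance alone does in about 1 of 20 groups. Apol10a read -6.27 in DBA 9, the lowest of its strain. The Apol10b probe A_55_P2006494 read -4.69 in NZO 3 and -4.79 in C3H 3, each the highest of its strain. The Apol10b probe A_66_P120380 read -3.68 in DBA 5 and the Apol7d probe A_55_P2011557 read -4.55 in C3H 3, again the highest. In these 5 cases no array of the strain was above background on that probe.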

How the results depend on the processing

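No Apol difference changed sign among called values. The NZO against B6 count of 3 became 5 with normexp and with the arrays of the 2 strains alone, and 7 with scan day as a block. NZO against DBA went from 4 to 2 in the authors' table, which holds 9 of the 12 probes, and to 1 when only probes above background on all arrays were tested, which leaves 7 of the 12. That filter gave 0 for DBA against B6 (limma, with 0 of 7 at an unadjusted p under 0.05, Apol10a not being among them), 4 for C3H against 129Ola and 25 of 39 for the 6 pairs across versions together. Slide as a random block gave 4 for C3H against 129Ola. Leaving out 1 array at a time gave 2 to 5 for NZO against B6, 1 to 1 for DBA against B6, 4 to 5 for NZO against DBA, 7 to 7 for C3H against 129Ola and 34 to 40 for the pairs across versions. Animal numbers shared by strains did not pair the mice (correlations of deviations -0.326 to 0.361), and a replicate block by that number, with 5 residual degrees of freedom, gave 2, 1, 3, 5 and 25 calls. Taking the percentile over probes above background on all arrays moved the median of all probes in C3H against 129Ola from -0.08 to 0.09 and the share of calls that were higher from 40.7% to 64.1% (NZO against B6 from 51.1% to 37.9%), with 5 Apol probes higher and 2 lower as before. Apol10a calls held in the 4 comparisons under every setting that tested the probe (adjusted p at most 0.0368, limma), though normexp gave -0.97 for DBA against B6, 4.11 for NZO against DBA and 2.30 for C3H against 129Ola. Signal near background limits Apol6, Apol7d, Apol8, Apol11b and the lower strains of Apol10a and Apol10b to bounds. The causes of these changes were not tested.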
